A study of Mus musculus with 23 samples.

Results

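Kinesins are the motor proteins examined here, in sorted germ cells of the mouse testis. The genes were taken by name: every gene symbol on the array that begins with Kif, Kifc or Klc followed by a digit, which gave 44 symbols. Each gene was read by the probe set that names no other gene and has the highest mean over the 20 wild-type arrays, and a gene was kept where log2(intensity + 1) reached 4 in at least 2 of the 23 arrays. This left 40 kinesin genes, among 13216 genes at the same level and 18193 genes with such a probe set in all. The 4 genes that fell short peaked at 3.92 (Kif13a), 3.41 (Kif12), 3.38 (Kif15) and 2.95 (Kif28). Just inside the limit were Kif1a, above it in 2 arrays, Kif21a in 6 and Kif14 in 7, while 27 of the 40 genes were above it in every array.

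Kinesins carry cargo along microtubules or change the microtubules themselves, using ATP. Heavy chains of the kinesin-1 class pair with light chains, which bind cargo; kinesin-2 motors drive intraflagellar transport, the movement that builds cilia and the sperm tail; other classes build the spindle, move chromosomes and complete cytokinesis. Male germ cells use both kinds of machinery: they divide as spermatogonia, pass through a long meiotic prophase with its leptotene, zygotene, pachytene and diplotene stages, divide again, and then form a flagellum and reshape the nucleus as spermatids.

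The wild-type cells were sorted by flow from testes of C57BL6xDBA2J F1 males of 10 to 16 weeks, stained with the DNA dye Hoechst 33342. The labels mark the repeats as biological. There were 4 arrays of spermatogonia, 3 of pre-leptotene, 3 of leptotene/zygotene, 1 of early pachytene, 2 of mid-pachytene, 1 of late pachytene, 2 of diplotene and 4 of round spermatids. The remaining 3 arrays came from Spo11-/- males of 10 to 16 weeks, whose strain the labels do not give; Spo11 makes the DNA double-strand breaks that start meiotic recombination. There was 1 Spo11-/- array each for spermatogonia, pre-leptotene and leptotene/zygotene, made from material combined over 2 collections of 4 and 3 mice, and whether these arrays share mice is not stated. All levels below are log2(intensity + 1), and all changes are differences on that scale, which understates the change of dim genes. Levels are compared between arrays for a gene and not between genes.

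The median linear intensity per array, before the log2 step, ranged from 10.6 to 12.6. The sorted fractions were set against marker lists. Of the 9 spermatogonial markers on the array, the median per array was 9.42 to 11.01 in spermatogonia and 3.98 to 5.58 in round spermatids, but also 10.17 to 10.71 in pre-leptotene and 10.61 to 11.03 in leptotene/zygotene. The 8 markers of meiotic entry and early prophase had medians of 8.94 to 10.06, 9.12 to 9.66 and 8.61 to 9.45 in the same 3 fractions, so neither list separates the early fractions that are compared below. The 10 late prophase markers had medians of 7.75 to 9.17 in spermatogonia and 12.54 to 13.52 in mid-pachytene. The 15 spermatid markers had medians of 12.42 to 13.11 in round spermatids, but also of 10.92, 12.09, 9.48 and 8.47 in wild-type spermatogonia, where all 15 were above log2 4. Their medians were also 6.80 to 8.20 in pre-leptotene, 7.94 to 9.92 in leptotene/zygotene and 11.20 in early pachytene. Mid-pachytene gave 10.64 and 11.56, late pachytene 8.64, and diplotene 10.08 and 11.25. The part of this signal in the kinesin readings of these fractions was not tested. In Spo11-/- cells the spermatid marker medians were 3.24, 2.95 and 2.98. Spo11 itself read 4.30, 4.80 and 5.21 in the Spo11-/- spermatogonia, pre-leptotene and leptotene/zygotene arrays. In wild type it read 4.60 to 6.69, 4.61 to 7.03 and 7.42 to 8.95, so that the genotypes separate clearly only in leptotene/zygotene. In sorted bulk samples, fewer cells of a type and less RNA per cell cannot be told apart.

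Most kinesin genes varied several-fold through spermatogenesis, and most were highest either in the early fractions or in round spermatids. The mean was highest in spermatogonia for 3 genes, in pre-leptotene for 16 and in leptotene/zygotene for 5, so 24 of 40 peaked in the early fractions. Another 11 were highest in round spermatids, 3 in late pachytene, 1 in early pachytene, 1 in mid-pachytene and 0 in diplotene. The range over the 8 fraction means ran from 0.54 (Kif14) to 6.68 (Kif9), with a median of 2.56; it was at least 1 in 37 genes, at least 2 in 26 and at least 3 in 15. Within a fraction, the SD over arrays had a median between 0.30 and 0.41 and reached 1.85. The range is the largest minus the smallest mean, some of them of 1 array, so this scatter widens it. The same counts were not made over all genes, so they describe the kinesin genes and do not set them apart.

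**Figure D1:**
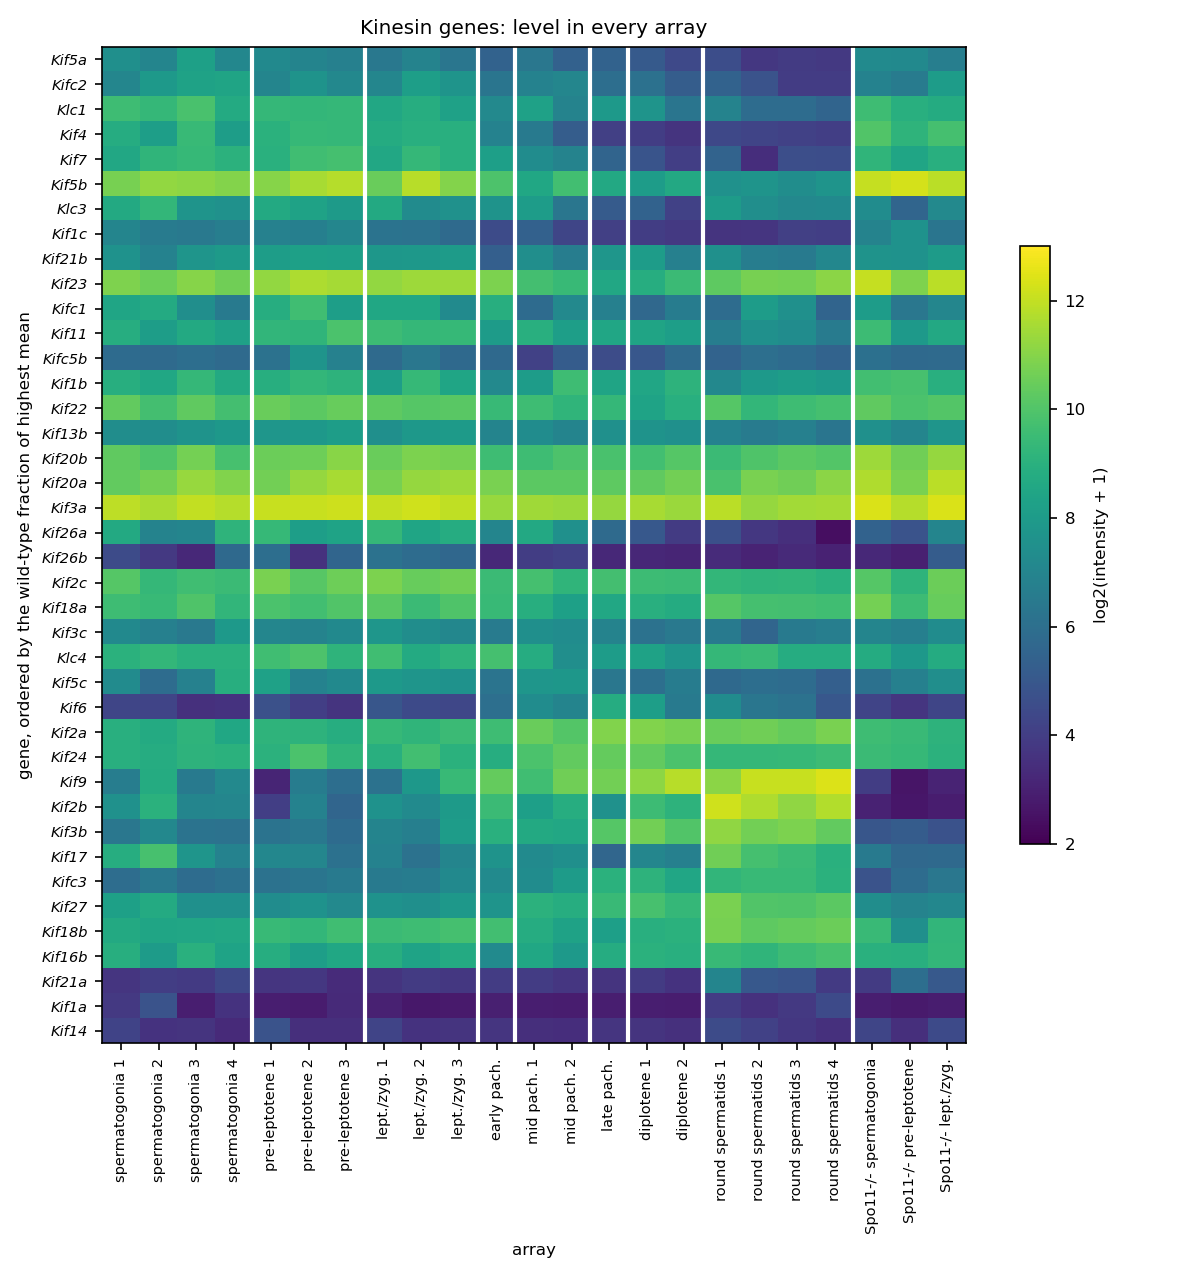
Heat map of log2(intensity + 1) for the 40 kinesin genes (vertical axis, ordered by the wild-type fraction of highest mean) in all 23 arrays (horizontal axis, white lines between groups). The 24 genes highest in the early fractions fill the upper block, and the 11 genes highest in round spermatids are the lowest 11 lines; colour differences between genes are not differences in amount.

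Calls of kinesin genes came at the entry into pachytene and at the later steps, where most calls over all genes also lay. Calls are from the fit without a replicate block unless a block is named. A gene was called changed where the change was at least 1 and limma gave an adjusted p under 0.05, with the Benjamini-Hochberg adjustment made across 13087 genes. Of the 40 kinesin genes, 0 were called from spermatogonia to pre-leptotene, where 1.70% of all genes were (0.0611% higher and 1.64% lower), and 9 had an unadjusted p below 0.05. From pre-leptotene to leptotene/zygotene 0 were called, against 3.11% of all genes (3.03% higher and 0.0764% lower), with 5 at an unadjusted p below 0.05. From leptotene/zygotene to mid-pachytene 3 rose and 10 fell; together this is 32.5% of the kinesin genes, beside 29.3% of all genes (14.2% higher and 15.2% lower). From mid-pachytene to diplotene 2 rose and 4 fell, or 15%, beside 21.5% of all genes (6.98% higher and 14.5% lower). From diplotene to round spermatids 8 rose and 1 fell, or 22.5%, beside 24.4% of all genes (12.5% higher and 12.0% lower). The median change of the kinesin genes over these 5 steps was 0.25, -0.04, -0.67, -0.02 and 0.11, beside -0.01, 0.02, -0.07, -0.01 and -0.01 for all genes. With both directions pooled, the shares of kinesin genes called lay near those of all genes at the last 3 steps. By direction they lay farther apart, with 10 of 40 lower at pachytene entry beside 15.2% of all genes, and 8 of 40 higher from diplotene to round spermatids beside 12.5%. These are differences of few genes, were not tested, and include weak calls. Of the 8, Kif1a had both group means below log2 4. Klc4 and Kif22 kept the call in 6 and 10 of 15 alternatives, while Kif17 and Kif18b kept it in all 15. Of the 10, Kif26b kept it in 8 of 13, while Kif23, Kif4 and Kif5b kept it in all 14. In all, 22 kinesin genes were called at 1 or more steps, 6 of them at 2 or more, and 18 at 0. The same count was not made over all genes, so these numbers do not set the kinesin genes apart.

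Promoter sequences are given for some of the genes described below whose level rose late or dipped and recovered. For Kif18a the rise from diplotene to round spermatids, 0.96, was not called. Other late-rising genes, such as Kif27 and Kif2a, are not shown. The sequences were selected by hand, each with the motif marked in it. They come from RefSeq on GRCm38.p6, run 5′ to 3′ on the gene's strand and end at the base before the annotated gene, except for Kif9 and Klc4, where the matched letters lie inside the annotated gene before a later annotated start and 30 bases are shown. In the first 5 the capitals mark the RFX X-box motif on either strand, known from promoters of ciliary genes:
Kif9, chr9:110476959-110476988, plus strand: ggcttcctGTTGCCATGGCGACtgtgtaca
Kif23, chr9:61946811-61946910, minus strand: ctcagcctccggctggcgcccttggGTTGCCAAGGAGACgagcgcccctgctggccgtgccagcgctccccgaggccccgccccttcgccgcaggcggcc
Kif18b, chr11:102925135-102925234, minus strand: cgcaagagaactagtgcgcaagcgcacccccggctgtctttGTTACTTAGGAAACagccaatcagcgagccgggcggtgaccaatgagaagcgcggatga
Kif18a, chr2:109280638-109280737, plus strand: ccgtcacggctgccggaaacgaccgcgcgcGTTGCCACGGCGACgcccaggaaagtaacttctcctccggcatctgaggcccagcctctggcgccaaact
Klc4, chr17:46646085-46646114, minus strand: ggggggggGTTGCTCGGGTCACgtgacggg
In Kif17 the capitals mark TGACGTCA, the full cAMP response element, and in Kif3b and Kif2b they mark CCAAT, the CCAAT box:
Kif17, chr4:138262151-138262250, plus strand: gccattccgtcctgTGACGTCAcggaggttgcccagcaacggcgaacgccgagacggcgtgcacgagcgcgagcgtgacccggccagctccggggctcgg
Kif3b, chr2:153291295-153291394, plus strand: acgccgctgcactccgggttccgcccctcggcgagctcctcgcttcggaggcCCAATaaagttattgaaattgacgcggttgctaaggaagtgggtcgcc
Kif2b, chr11:91577556-91577655, minus strand: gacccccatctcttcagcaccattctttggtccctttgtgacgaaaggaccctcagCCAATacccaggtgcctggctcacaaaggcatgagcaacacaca

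A window of 250 bases before at least 1 annotated start was found for 33 of the 40 kinesin genes, and the same search was run on the windows of 27025 genes, on both strands. Those 27025 genes, called all genes here, were not limited to genes on the array or to the level that the kinesin genes reached. The shares below therefore come from unlike sets. The RFX X-box motif was searched as a pattern of 1 fixed spacing, with any base allowed at its variable positions. This pattern stood before 5 of the 33 kinesin genes (15.2%) and 2.07% of all genes. The 5 are those in which the capitals above mark it. A match to the pattern can be looser than the motif. Forms of other spacing, such as that in the printed letters of Kif17, were not searched or counted. TGACGTCA stood before 3 (9.09%), namely Kif17, Kif5c and Klc1, and before 1.77% of all genes. CCAAT stood before 18 (54.5%) and 37.5% of all genes, and before 9 of the 12 spindle and cytokinesis genes with a window. TTTGAA, the letters of the CHR element of cell-cycle promoters, stood before 7 (21.2%) and 18.3% of all genes. The 4 motifs do not contain one another. A match is a description of letters, not evidence that a factor binds.

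The kinesin-1 heavy chains, which haul vesicles and organelles, were lower in round spermatids than in spermatogonia in all 3 genes. Kif5b, the widely expressed heavy chain, read 10.76, 11.21, 11.13 and 10.95 in spermatogonia, 10.99, 11.58 and 11.78 in pre-leptotene and 10.47, 11.82 and 10.98 in leptotene/zygotene. It then read 9.92 in early pachytene, 8.57 and 9.67 in mid-pachytene, 8.65 in late pachytene, 8.10 and 8.62 in diplotene, and 7.57, 7.71, 7.40 and 7.68 in round spermatids. The early arrays are all high, the meiotic ones step down, and the round spermatids are below every other array. Kif5b fell by 1.97 ± 0.39 (SE) from leptotene/zygotene to mid-pachytene (3 and 2 arrays, limma adjusted p = 0.00162). From spermatogonia to round spermatids (4 arrays each) it fell by 3.42 ± 0.30 (adjusted p = 3.14e-08). Kif5a, a heavy chain best known from neurons, read 7.48, 6.99, 8.25 and 7.08 in spermatogonia and 4.59, 3.80, 3.93 and 3.82 in round spermatids. These groups do not overlap, and the change was -3.42 ± 0.31 (adjusted p = 4.58e-08), or -1.16 with the mean of its probe sets, still called. Kif5c, the other neuronal heavy chain, changed by -1.51 ± 0.47 (adjusted p = 0.0079), but its arrays overlapped, and its change was -0.96 without spermatogonia array 4, -0.62 with the mean of its probe sets and -1.02 (adjusted p = 0.0674) with quantile normalization.

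Among the kinesin light chains, Klc1 fell and Klc3, a testis light chain that associates with the outer dense fibres of the sperm tail, dipped in diplotene and returned. Klc1 read 9.60, 9.32, 9.85 and 8.74 in spermatogonia and 6.92, 5.88, 5.90 and 5.55 in round spermatids, without overlap. Its change was -3.32 ± 0.38 (adjusted p = 6.39e-07), or -1.76 with the mean of its probe sets, still called. Klc3 read 8.69, 9.30, 7.69 and 7.57 in spermatogonia, 8.68, 8.33 and 7.99 in pre-leptotene and 8.67, 7.29 and 7.56 in leptotene/zygotene. It read 7.67 in early pachytene, 8.08 and 6.32 in mid-pachytene, 5.15 in late pachytene, 5.48 and 4.14 in diplotene, and 8.04, 7.42, 7.15 and 7.24 in round spermatids. Late pachytene and diplotene are below every other array of the gene. Klc3 fell by 2.39 ± 0.66 from mid-pachytene to diplotene (2 arrays each, adjusted p = 0.0164) and rose by 2.65 ± 0.57 from diplotene to round spermatids (2 and 4 arrays, adjusted p = 0.00287). The fall had adjusted p = 0.23 without mid-pachytene array 1 and 0.186 without diplotene array 2, and the rise 0.0613 without diplotene array 2.

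Klc4, a broadly expressed light chain, moved less. It read 9.03, 9.29, 8.97 and 9.00 in spermatogonia, 9.63, 9.94 and 9.14 in pre-leptotene, 9.62, 8.71 and 9.11 in leptotene/zygotene and 9.75 in early pachytene. It read 8.80 and 7.45 in mid-pachytene, 8.10 in late pachytene, 8.35 and 7.75 in diplotene, and 9.33, 9.44, 8.80 and 8.79 in round spermatids. The diplotene arrays are below all round spermatid arrays. The rise of 1.04 ± 0.37 from diplotene to round spermatids had adjusted p = 0.0465, and it missed the test in 9 of 15 alternatives, with 0.304 without diplotene array 2.

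The kinesin-3 motors, which carry vesicles and endosomes, gave 1 fall at pachytene entry and 2 falls between spermatogonia and round spermatids. Kif1c read 6.99, 6.58, 6.46 and 6.69 in spermatogonia, 6.82, 6.73 and 7.06 in pre-leptotene, 6.21, 6.14 and 5.81 in leptotene/zygotene and 4.53 in early pachytene. It read 5.41 and 4.29 in mid-pachytene, 4.07 in late pachytene, 3.98 and 3.82 in diplotene, and 3.67, 3.68, 4.09 and 4.02 in round spermatids, close to the limit of log2 4. It changed by -1.21 ± 0.30 at pachytene entry (adjusted p = 0.00681) and by -2.82 ± 0.23 from spermatogonia to round spermatids (adjusted p = 1.71e-08). With the mean of all its probe sets these were -0.46 and -0.93, and neither reached the change of 1; at pachytene entry it was also -0.65 without mid-pachytene array 2. Kif16b, an endosomal motor, read 8.91, 8.04, 8.97 and 8.40 in spermatogonia, 8.87, 8.16 and 8.55 in pre-leptotene, and 8.91, 8.39 and 8.74 in leptotene/zygotene. It read 7.26 in early pachytene, 8.57 and 7.94 in mid-pachytene, 8.81 in late pachytene, 9.04 and 8.94 in diplotene, and 9.42, 9.18, 9.56 and 9.79 in round spermatids. Round spermatids are above all other wild-type arrays, but the change from spermatogonia, 0.91 ± 0.25, is under 1. Kif1b changed by -1.09 ± 0.34 between the same fractions (adjusted p = 0.00838), with -0.88 without round spermatid array 1, -0.94 without spermatogonia array 3 and -0.86 with quantile normalization. Kif13b was at -0.94 and not called. Kif1a, a vesicle motor of axons, had a fitted change of 1.06 from diplotene to round spermatids (adjusted p = 0.0482), but both group means were below log2 4, so no fold is given; its round spermatid arrays read 3.94, 3.58, 3.83 and 4.48.

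The kinesin-2 motors Kif3a and Kif3b are partners in the heterotrimeric motor of intraflagellar transport, yet their readings moved apart. Kif3b read 6.36, 7.13, 6.19 and 6.13 in spermatogonia, 6.19, 6.42 and 5.84 in pre-leptotene, 6.96, 6.73 and 8.09 in leptotene/zygotene and 8.98 in early pachytene. It read 8.68 and 8.59 in mid-pachytene, 10.09 in late pachytene, 10.64 and 10.01 in diplotene, and 11.19, 10.65, 10.85 and 10.37 in round spermatids. Every array from early pachytene on is above every earlier array. Kif3b rose by 1.38 ± 0.40 at pachytene entry (adjusted p = 0.016) and by 1.69 ± 0.44 from mid-pachytene to diplotene (adjusted p = 0.0115). From spermatogonia to round spermatids it rose by 4.32 ± 0.31 (adjusted p = 4.36e-09), a 19.9-fold difference. The rise at pachytene entry had adjusted p between 0.0531 and 0.0939 without leptotene/zygotene array 1 or 2, without mid-pachytene array 1 or 2, or on the arrays of these fractions alone; the rise to diplotene missed the test without mid-pachytene array 1 or diplotene array 1.

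Kif3a read 11.90, 11.60, 12.01 and 11.77 in spermatogonia, 12.06, 12.08 and 12.15 in pre-leptotene, and 12.02, 12.20 and 11.93 in leptotene/zygotene. It read 11.32 in early pachytene, 11.45 and 11.36 in mid-pachytene, 11.25 in late pachytene, 11.58 and 11.36 in diplotene, and 11.84, 11.24, 11.48 and 11.53 in round spermatids. Its fraction means span 0.84, and it was not called at any of the 5 steps. The probe sets of Kif3a disagree (lowest correlation over the 8 fraction means -0.36), while those of Kif3b move together (0.95).

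Kif17, a homodimeric kinesin-2 that in spermatids also moves the coactivator Fhl5 (ACT) of the transcription factor Crem, rose after meiosis. It read 7.06 and 6.77 in diplotene and 10.60, 9.74, 9.50 and 8.99 in round spermatids, without overlap, a rise of 2.79 ± 0.62 (adjusted p = 0.00331). Its spermatogonia read 8.85, 9.81, 7.74 and 6.89, which overlap the round spermatids; the change between these fractions was 1.38 ± 0.50 (adjusted p = 0.0206). The spermatogonia arrays with the higher Kif17 readings, 1 and 2, are also those with the higher spermatid marker medians, 10.92 and 12.09. Without both arrays the change was 2.39, still called; it was not called without spermatogonia array 3 (1.19) or 4 (0.90) or round spermatid array 1 (1.09). Kif3c was not called at any step.

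**Figure D2:**
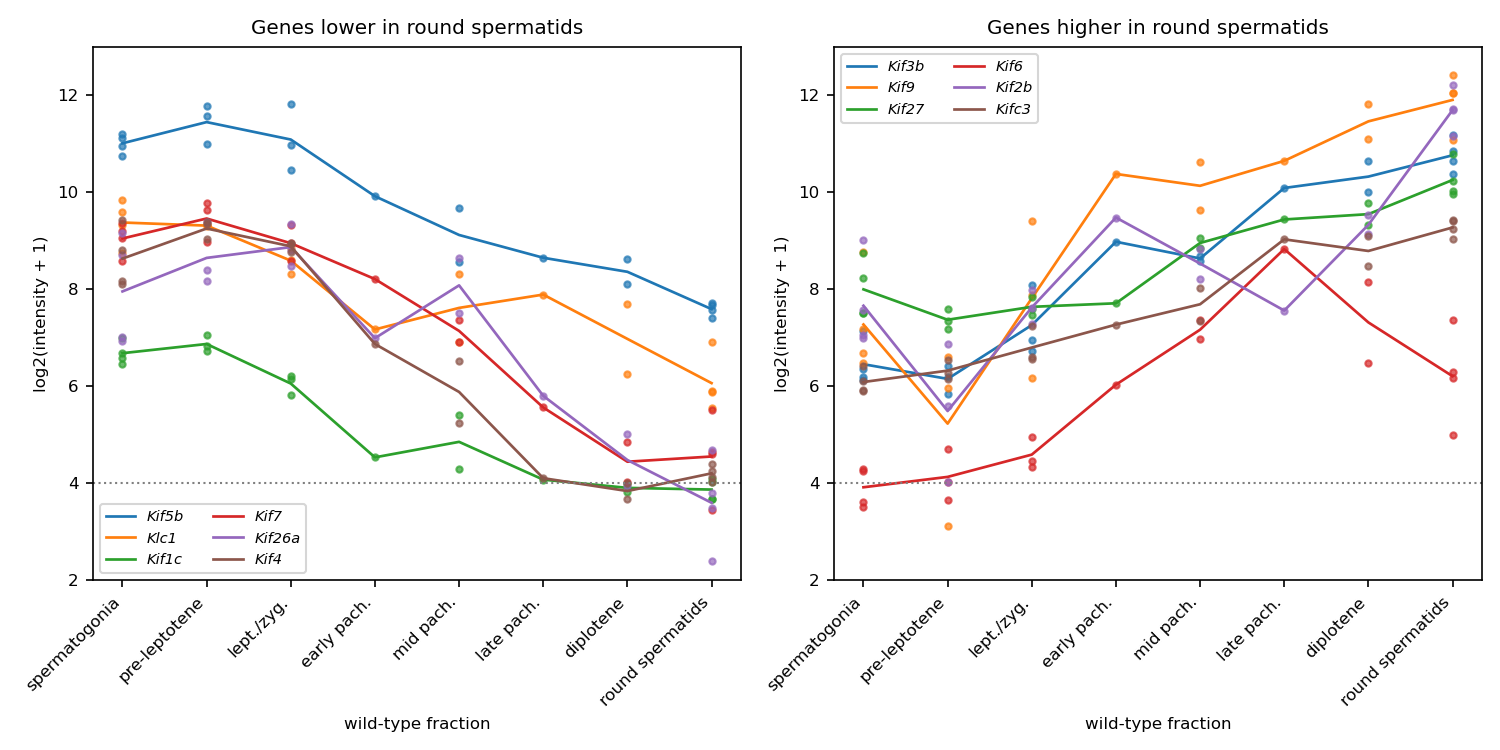
log2(intensity + 1) of 12 kinesin genes (vertical axis) through the 8 wild-type fractions (horizontal axis); points are arrays, lines join fraction means and the dotted line is the limit of log2 4. The 6 genes at left end between 3.59 and 7.59 in round spermatids, and the 6 at right between 6.21 and 11.91.

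Kinesins of the cilium and flagellum split into Kif9, Kif27 and Kif6, which rose, and Kif7, which fell. Kif9, a motor of the flagellar axoneme needed for normal sperm motility, read 6.68, 8.76, 6.47 and 7.18 in spermatogonia, 3.12, 6.60 and 5.96 in pre-leptotene, and 6.16, 7.88 and 9.40 in leptotene/zygotene. It read 10.38 in early pachytene, 9.64 and 10.63 in mid-pachytene, 10.65 in late pachytene, 11.11 and 11.82 in diplotene, and 11.09, 12.06, 12.06 and 12.42 in round spermatids. The early arrays scatter widely, and all arrays from early pachytene on are above them. Kif9 rose by 4.63 ± 0.75 from spermatogonia to round spermatids (adjusted p = 3.23e-05), a 24.8-fold difference. It was not called at any single step without a replicate block. Its X-box letters are printed above.

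Kif6, an axonemal motor, rose by 2.58 ± 0.57 at pachytene entry (adjusted p = 0.00366). It read 4.96, 4.46 and 4.34 in leptotene/zygotene and 7.36 and 6.97 in mid-pachytene, without overlap. Late pachytene read 8.83, diplotene 8.15 and 6.48, and round spermatids 7.37, 6.30, 6.16 and 4.99, so that the round spermatid arrays spread over a wide range below the peak. Kif27, a relative of Kif7 needed for motile cilia, read 7.60, 7.46 and 7.85 in leptotene/zygotene and 9.05 and 8.86 in mid-pachytene, also without overlap. It rose by 1.32 ± 0.36 (adjusted p = 0.011), which missed the test without mid-pachytene array 1 (0.0581) or 2 (0.0643).

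Kif7, a regulator of Hedgehog signalling at the tip of the primary cilium, fell in meiosis. It read 8.58, 9.32 and 8.95 in leptotene/zygotene, 7.36 and 6.92 in mid-pachytene, and 4.85 and 4.03 in diplotene. Each group lies below the one before it. The falls were 1.81 ± 0.47 (adjusted p = 0.0087) and 2.70 ± 0.51 (adjusted p = 0.00151). At the earlier step the adjusted p was 0.105 without mid-pachytene array 2. From spermatogonia, at 8.58, 9.20, 9.36 and 9.05, to round spermatids, at 5.50, 3.45, 4.65 and 4.59, Kif7 fell by 4.50 ± 0.36 (adjusted p = 1.4e-08).

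Kif24, a motor that restrains cilium formation at the mother centriole, changed little. It read 8.95, 8.81, 9.09 and 9.01 in spermatogonia, 9.06, 9.90 and 9.20 in pre-leptotene, 8.94, 9.69 and 9.01 in leptotene/zygotene and 8.84 in early pachytene. It read 9.89 and 10.36 in mid-pachytene, 10.42 in late pachytene, 10.34 and 9.89 in diplotene, and 9.32, 9.31, 9.39 and 9.55 in round spermatids. It is somewhat higher from mid-pachytene to diplotene, and its change of 0.91 at pachytene entry is under the limit of 1.

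The spindle, chromosome and cytokinesis kinesins are the largest group, with 13 genes. At pachytene entry 6 of the 13 fell and 0 rose, beside 15.2% of all genes lower and 14.2% higher. From diplotene to round spermatids 4 rose and 1 fell, beside 12.5% of all genes higher and 12.0% lower. Kif4, a chromokinesin of the chromosome arms and the central spindle and the only X-linked gene among the 40, read 8.77, 8.96 and 8.93 in leptotene/zygotene, 6.87 in early pachytene, 6.52 and 5.24 in mid-pachytene and 4.10 in late pachytene. It read 4.00 and 3.67 in diplotene and 4.40, 4.25, 4.12 and 4.03 in round spermatids, near or under the limit. The fall at pachytene entry was 3.01 ± 0.39, or 8.03-fold (adjusted p = 0.000109). From mid-pachytene to diplotene the diplotene arrays are not above log2 4, so only a bound can be given, at most -1.88 (fitted change -2.05, adjusted p = 0.00265), and the call was lost without mid-pachytene array 1 (0.0611). From spermatogonia, at 8.82, 8.17, 9.43 and 8.11, to round spermatids Kif4 fell by 4.43 ± 0.30 (adjusted p = 2.44e-09).

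Kif23, the motor subunit of centralspindlin that is required for cytokinesis and sits at germ cell intercellular bridges, fell and returned. It read 11.23, 11.37 and 11.37 in leptotene/zygotene, 9.70 and 9.43 in mid-pachytene, 8.85 and 9.48 in diplotene, and 10.26, 10.74, 10.70 and 11.09 in round spermatids. The mid-pachytene and diplotene arrays are below all arrays of the other named fractions. It fell by 1.75 ± 0.27 (adjusted p = 0.000374) and rose by 1.53 ± 0.26 (adjusted p = 0.000469). The rise was 0.84 (adjusted p = 0.181) with the mean of its probe sets.

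Kif18b, a plus-end kinesin that shortens astral microtubules, rose from 8.94 and 9.04 in diplotene to 10.74, 10.25, 10.38 and 10.51 in round spermatids. The groups are far apart for their spread, with a rise of 1.48 ± 0.21 (adjusted p = 0.000146). At pachytene entry it had fallen by 1.05 ± 0.23 (adjusted p = 0.003). Kif18a, which damps chromosome oscillation at metaphase, and Kifc5b each fell by 1.31 at pachytene entry (adjusted p = 0.00355 and 0.0228), and Kif2c, the centromeric microtubule depolymerase, by 1.15 (adjusted p = 0.00528). For Kif18a and Kif2c the mean over probe sets gave -0.60 and -0.44, which are not calls. The same mean gave falls of 2 genes not called otherwise at pachytene entry in the main fit: Kif11 (-1.38, adjusted p = 0.0048) and Kif22 (-1.53, adjusted p = 0.000298). For Kifc5b the change was -0.79 without mid-pachytene array 1 and -1.11 (adjusted p = 0.0823) without leptotene/zygotene array 2. Without mid-pachytene array 2, Kif18a, Kif18b and Kif2c were not called, nor was Kif18b without leptotene/zygotene array 3 (-0.97).

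Kif2b, a kinetochore microtubule depolymerase, was low early and highest in round spermatids. It read 7.58, 9.01, 7.00 and 7.05 in spermatogonia, 4.02, 6.86 and 5.58 in pre-leptotene, 7.61, 7.28 and 7.98 in leptotene/zygotene and 9.48 in early pachytene. It read 8.22 and 8.84 in mid-pachytene, 7.56 in late pachytene, 9.53 and 9.13 in diplotene, and 12.21, 11.69, 11.17 and 11.72 in round spermatids, above all other arrays. It rose by 2.36 ± 0.63 from diplotene to round spermatids (adjusted p = 0.0108), with adjusted p = 0.0578 without diplotene array 1 and 0.0798 without diplotene array 2. From spermatogonia to round spermatids it rose by 4.04 ± 0.52 (adjusted p = 2.43e-06), and without spermatogonia arrays 1 and 2 by 4.67.

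Kif20a, which works at the central spindle, kept within a narrow range. It read 10.35, 10.66, 11.31 and 10.93 in spermatogonia, 10.67, 11.25 and 11.54 in pre-leptotene, 10.74, 11.28 and 11.41 in leptotene/zygotene and 10.79 in early pachytene. It read 10.22 and 10.22 in mid-pachytene, 10.26 in late pachytene, 10.30 and 10.65 in diplotene, and 9.84, 10.78, 10.61 and 11.10 in round spermatids. No step was called. Kif11, the bipolar motor that separates spindle poles, read 8.41 and 8.16 in diplotene and 6.66, 7.50, 7.37 and 6.58 in round spermatids, without overlap. It fell by 1.25 ± 0.33 (adjusted p = 0.00989), the only fall among the 9 kinesin genes called at that step. The mean of its probe sets gave -0.46, and without diplotene array 1 the adjusted p was 0.106. Kif22, a chromokinesin, rose by 1.02 ± 0.28 (adjusted p = 0.012), on the edge of the limit and under it without diplotene array 1 (0.76). Kif14, Kif20b and Kifc1 were not called at any step.

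**Figure D3:**
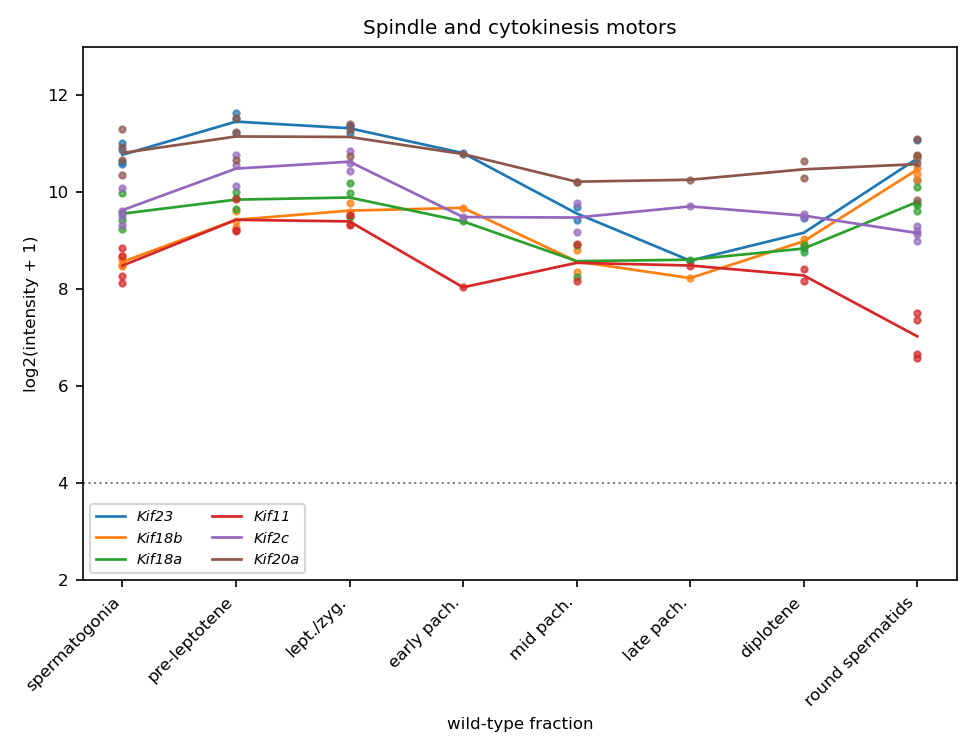
log2(intensity + 1) of 6 spindle and cytokinesis kinesins (vertical axis) through the wild-type fractions (horizontal axis); points are arrays, lines join means and the dotted line is the limit of log2 4. Kif23 reads 8.85 to 9.70 in mid-pachytene and diplotene and 10.26 to 11.09 in round spermatids, while Kif11 reads 6.58 to 7.50 there, below all its other arrays.

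The remaining kinesins held both late-rising and early genes. Kif26a, a kinesin without motor activity that acts in cell signalling, read 8.70, 6.94, 7.01 and 9.17 in spermatogonia, 9.38, 8.17 and 8.39 in pre-leptotene, 9.34, 8.47 and 8.80 in leptotene/zygotene and 6.99 in early pachytene. It read 8.65 and 7.51 in mid-pachytene, 5.80 in late pachytene, 5.02 and 3.93 in diplotene, and 4.69, 3.80, 3.48 and 2.40 in round spermatids. All arrays from late pachytene on are below all earlier ones. It fell by 3.60 ± 0.79 from mid-pachytene to diplotene (adjusted p = 0.00385), with 0.0596 without mid-pachytene array 1 and 0.0563 without diplotene array 2. From spermatogonia to round spermatids it fell by 4.36 ± 0.56 (adjusted p = 2.36e-06).

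Kifc3, a minus-end motor, read 7.35 and 8.03 in mid-pachytene, 9.09 and 8.49 in diplotene, and 9.24, 9.40, 9.42 and 9.04 in round spermatids, against 5.92, 6.42, 5.89 and 6.11 in spermatogonia. The spermatogonia and round spermatids are far apart, with a rise of 3.19 ± 0.23 (adjusted p = 4.49e-09). The rise from mid-pachytene to diplotene was 1.11 ± 0.33 (adjusted p = 0.022) and missed the test without mid-pachytene array 1 or diplotene array 1. Kif26b, the relative of Kif26a, read 6.16, 5.90 and 5.67 in leptotene/zygotene and 4.00 and 4.13 in mid-pachytene, a change of -1.85 ± 0.63 (adjusted p = 0.0352). It is dim, and the call was lost without any 1 of leptotene/zygotene arrays 1 and 2 or the mid-pachytene arrays, and with no filter (0.0617).

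Kif2a, a microtubule depolymerase, read 8.96, 8.73, 9.17 and 8.55 in spermatogonia, 9.15, 9.12 and 8.86 in pre-leptotene, 9.35, 9.20 and 9.49 in leptotene/zygotene and 9.60 in early pachytene. It read 10.49 and 10.05 in mid-pachytene, 10.90 in late pachytene, 10.91 and 10.75 in diplotene, and 10.49, 10.61, 10.39 and 10.77 in round spermatids. The arrays from mid-pachytene on are above all earlier ones. Its rise from spermatogonia to round spermatids was 1.71 ± 0.19 (adjusted p = 4.34e-07). Kifc2 fell by 3.37 ± 0.38 between the same fractions (adjusted p = 6.56e-07), and the change was -1.97 with the mean of its probe sets, still called. Kif21a, Kif21b and Kifc2 were not called at any single step.

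Set end to end, round spermatids against spermatogonia, 10 kinesin genes rose and 12 fell, which is 55% of them beside 65.4% of all genes (30.2% higher and 35.3% lower). The largest rises were those of Kif9, Kif3b, Kif2b, Kifc3, Kif6 (2.30 ± 0.44, adjusted p = 0.000197; 1.10 with the mean of its probe sets) and Kif27 (2.26 ± 0.28, adjusted p = 1.51e-06), followed by Kif18b, Kif2a, Kif17 and Kif21a. The largest falls were those of Kif7, Kif4, Kif26a, Kif5b, Kif5a and Kifc2, followed by Klc1, Kif1c, Kif5c, Kif11, Kif26b and Kif1b. Kif26b is below log2 4 in all round spermatid arrays, and its change is bounded at -0.34 (fitted -1.13, adjusted p = 0.0468); the call was lost in 8 of 17 alternatives. Kif21a overlapped between the fractions and rested on round spermatid array 1, at 6.99 beside 5.02, 4.85 and 3.87; without it the change was 0.60. Markers of other cells were also lower: the 10 leukocyte and macrophage markers summed to 1369 to 6324 in spermatogonia and 114 to 158 in round spermatids, and the 8 stroma markers to 1128 to 16229 and 1021 to 1467, which overlap. Spermatogonia array 4 had the highest sums of both lists and the highest spermatogonia readings of Kif5c, Kif26a and Kif26b. Pre-leptotene array 1, with the highest leukocyte and macrophage sum of its fraction (2292), also had the highest readings there, at 8.28, 9.38 and 5.99. In leptotene/zygotene that sum was 70.1 to 232, and the 3 genes read 7.62 to 7.94, 8.47 to 9.34 and 5.67 to 6.16. Without spermatogonia array 4 the changes of Kif5c and Kif26b were -0.96 and -0.67 and not called. Kif26a stayed called in every alternative, between -4.73 and -3.95. Leaving out 1 array cannot separate these cells from other differences of that array, and their part was not tested for any gene. The median change of the kinesin genes was -0.28, beside -0.16 for all genes. Of the 15 spermatid markers only 7 were called higher and 0 lower, with a median change of 0.72. Their summed intensities were 154296, 226725, 82860 and 49678 in the spermatogonia arrays, in order, and 117847 to 160713 in round spermatids, which overlap. The part of this signal in the kinesin changes was not tested. The comparison was repeated without spermatogonia arrays 1 and 2, a choice made after seeing the data: 21 kinesin genes were called, 20 of them among the 22.

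**Figure D4:**
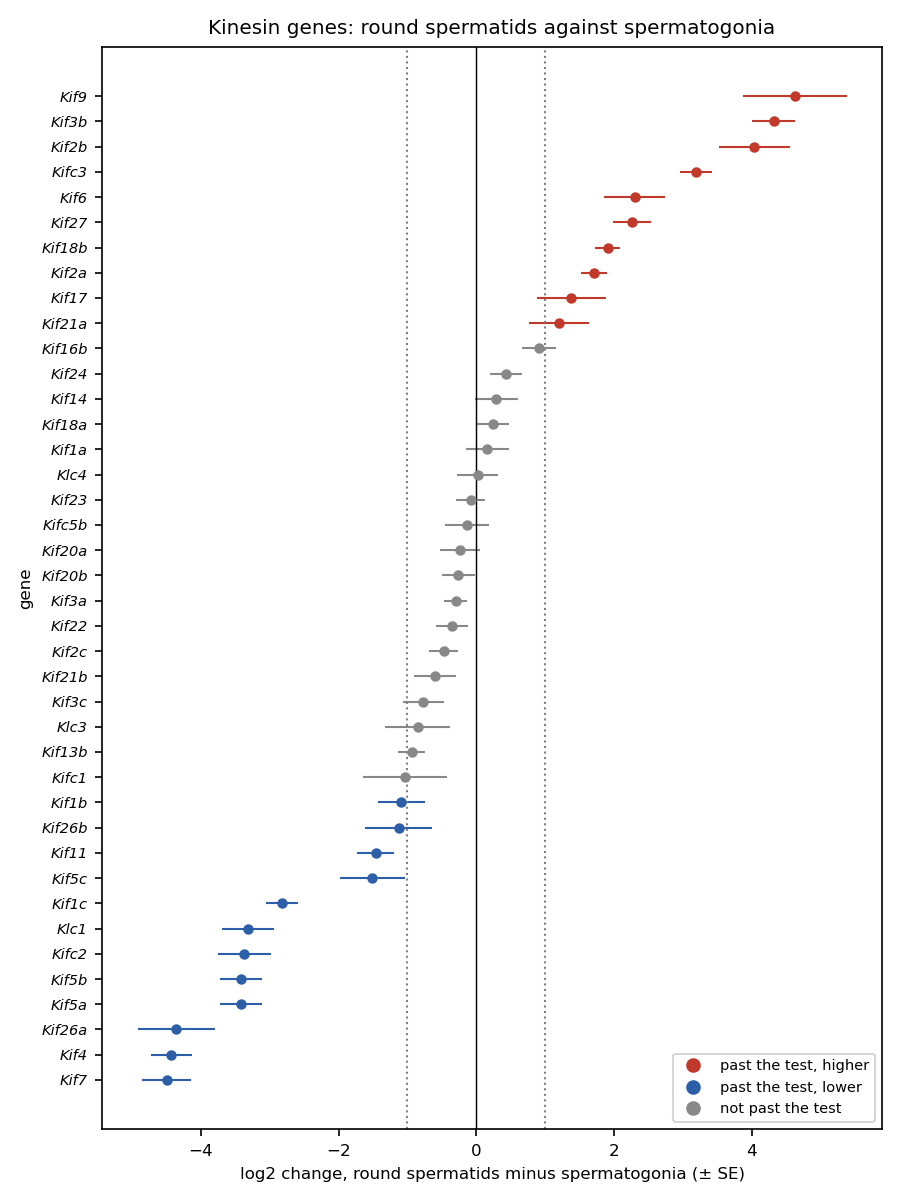
log2 change from spermatogonia to round spermatids (horizontal axis, 4 arrays each, bars are SE) for the 40 kinesin genes (vertical axis, in order of change); dotted lines mark changes of -1 and 1. Red marks the 10 genes called higher, blue the 12 called lower and grey the 18 not called; Kif26b, in blue, is below log2 4 in all round spermatid arrays.

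In the earlier steps, where no kinesin gene was called, the largest differences were those of Kif2b and Kif9. From spermatogonia to pre-leptotene they were -2.17 ± 0.56 (adjusted p = 0.06) and -2.05 ± 0.81 (0.293); from pre-leptotene to leptotene/zygotene they were 2.14 ± 0.60 (0.0649) and 2.59 ± 0.87 (0.14). Pre-leptotene array 1 read lowest for both, at 4.02 and 3.12. Same-numbered spermatogonia and pre-leptotene arrays deviated together, so the replicate number was also fitted as a block. With the block, Kif2b (-2.27 ± 0.57, adjusted p = 0.0368) and Kif17 (-1.93 ± 0.41, adjusted p = 0.0155) fell from spermatogonia to pre-leptotene, and 2 genes were called in place of 0. The spermatid markers moved the same way between these fractions: 6 of 15 fell and 0 rose, with summed intensities of 49678 to 226725 in spermatogonia and 25793 to 45791 in pre-leptotene, and their part in these differences was not tested.

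The Spo11-/- comparison asks how the early fractions differ when double-strand breaks are not made. Of the 39 kinesin genes tested, 4 were lower and 1 was higher in Spo11-/- cells across the 3 fractions, or 12.8%, beside 11.7% of 11980 genes (1.63% higher and 10.0% lower). The median difference was -0.16, beside -0.05 for all genes. Kif2b read 3.04, 2.68 and 2.87 in the Spo11-/- spermatogonia, pre-leptotene and leptotene/zygotene arrays, below the limit and below all 10 wild-type arrays given above. The difference is therefore a bound, at most -2.92 (fitted -4.07 ± 0.58, limma adjusted p = 0.00082). Kif9 read 4.00, 2.62 and 3.10, lower than the wild-type arrays of each fraction, with a bound of at most -2.77 (fitted -3.52 ± 0.80, adjusted p = 0.0122). Without the Spo11-/- spermatogonia array the adjusted p of Kif9 was 0.0505, and without the leptotene/zygotene array 0.0943.

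Kif3b read 4.93, 5.19 and 4.78 in the same order, again below every wild-type array of its fraction, and differed by -1.65 ± 0.34 (adjusted p = 0.00734). With the mean of its probe sets the difference was -0.62 (adjusted p = 0.142), and without the Spo11-/- leptotene/zygotene array -1.25 (0.074). Kif26a read 5.48, 4.83 and 6.99, below every wild-type array of each fraction, and differed by -2.72 ± 0.51 (adjusted p = 0.00413), with 0.0528 without the pre-leptotene arrays. Kif21a read 3.90, 5.96 and 5.09, within the wild-type range in spermatogonia and above it in the other fractions, and differed by 1.16 ± 0.34 (adjusted p = 0.037). Without the Spo11-/- pre-leptotene array this was 0.59 (adjusted p = 0.232), while without the Spo11-/- spermatogonia array it was 1.83; it missed the test in 12 of 21 alternatives. The other 34 genes were not called, among them Kif5b at 0.88 (adjusted p = 0.0374) and Kifc3 at -0.72 (0.0459), both under the limit of 1.

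Markers of other cells differed between the genotypes along with these genes. Of the 15 spermatid markers 14 were lower in Spo11-/- cells, with summed intensities of 151, 134 and 136 against 49678 to 226725, 25793 to 45791 and 30870 to 47298 in wild type. Prm1, Prm2, Tnp1, Tnp2 and Akap4 were below log2 4 in every Spo11-/- array. Of the 10 late prophase markers 8 were lower, with summed intensities of 3483, 2730 and 3563 against 8729 to 27549, 4187 to 10076 and 17163 to 43626. The Spo11-/- pre-leptotene array also held signal of blood cells: all 8 T cell markers were above log2 4, with a summed intensity of 5309 against 55.2 to 166 in the other arrays, and the 10 leukocyte and macrophage markers summed to 11170 against 114 to 2292 in wild-type pre-leptotene. In the same array the 8 stroma markers summed to 4463 against 596 to 1868, and the 9 Sertoli markers to 12127 against 2520 to 6221. The Sertoli sum was also higher in the Spo11-/- leptotene/zygotene array, at 11590 against 5558 to 7904. These sums rest on part of the list, since Sox9, Gata4 and Fshr were below log2 4 in both arrays. Of the 6 Sertoli markers tested across the fractions, 1 was called higher and 0 lower, beside 1.63% and 10.0% of all genes. Both arrays are those in which Kif21a was above wild type. In wild type the highest Sertoli sums were 8234 in mid-pachytene array 1, 8102 in round spermatid array 1 and 8092 in early pachytene. Kif21a read 3.96, 6.99 and 3.95 there. The part of these cells in the kinesin differences was not tested.

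**Figure D5:**
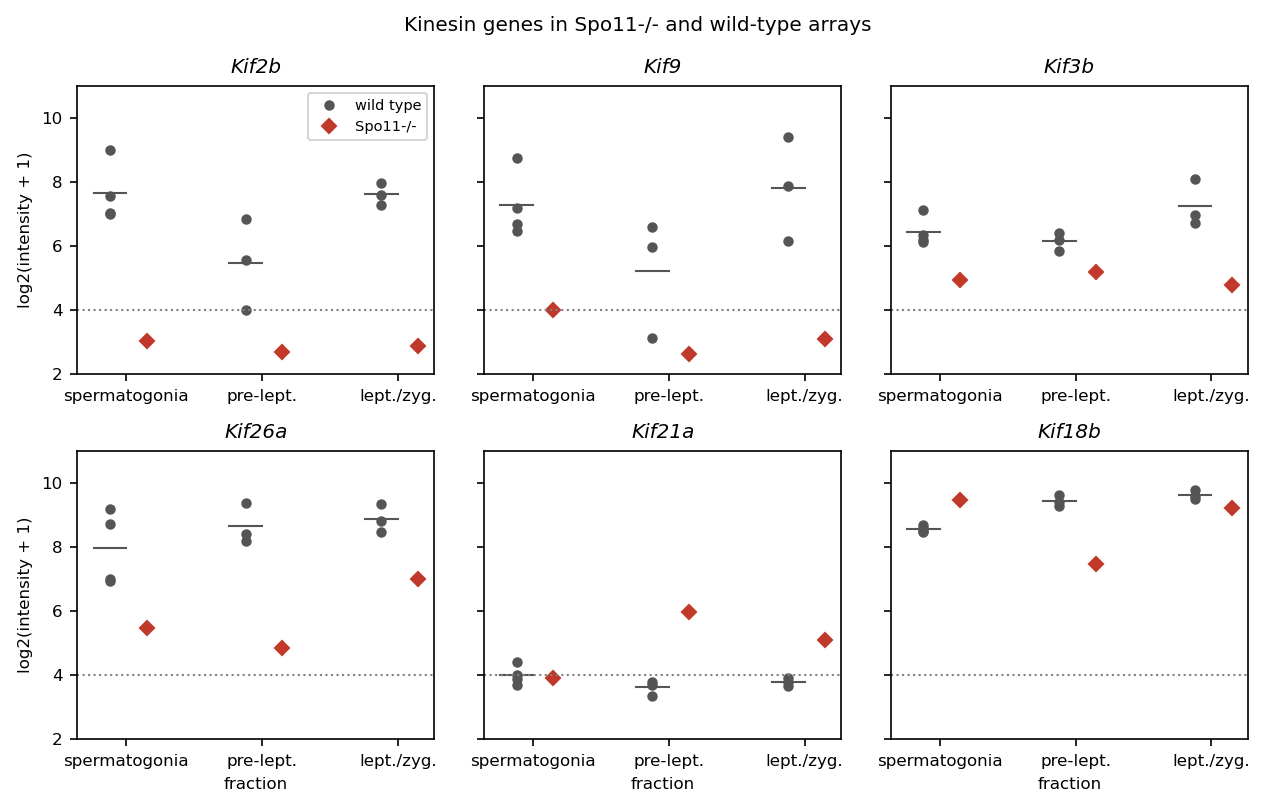
log2(intensity + 1) (vertical axis) of 6 kinesin genes in wild-type arrays (grey points, bars are means) and the single Spo11-/- array (red diamonds) of each of 3 fractions (horizontal axis); the dotted line is the limit of log2 4. The Spo11-/- points of Kif2b, Kif9, Kif3b and Kif26a lie below all wild-type points of their fraction, Kif21a is higher in pre-leptotene and leptotene/zygotene, and Kif18b is at 7.47 in pre-leptotene, below its wild-type arrays.

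Within single fractions there is 1 Spo11-/- array and no test. Genes at least 1 beyond every wild-type array were counted. In spermatogonia these were Kif23 higher and Kif26a, Kif2b, Kif3b, Kif9 and Kifc3 lower, 1 and 5 of 39 beside 0.659% and 9.27% of all genes. In leptotene/zygotene they were Kif21a higher and Kif26a, Kif2b, Kif3b and Kif9 lower, 1 and 4 of 39 beside 1.50% and 11.5%. In pre-leptotene they were Kif21a higher and Kif11, Kif18b, Kif26a, Kif2b, Kifc1, Klc3 and Klc4 lower, 1 and 7 of 39 beside 7.44% and 9.47%, in the array with the T cell signal. A limma interaction of fraction and genotype can be fitted only on the spread of the wild-type arrays, with each single Spo11-/- array assumed to vary like them; on that assumption 242 of 11980 genes and 1 kinesin gene passed. That gene was Kif18b, with differences of 0.91, -1.96 and -0.40 in the 3 fractions (adjusted p = 0.00752), and it rests on 1 pre-leptotene array. Its Spo11-/- pre-leptotene array read 7.47, beside 9.40, 9.28 and 9.62 in wild type.

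Partners of the kinesins were followed in 4 lists. The list of 24 intraflagellar transport genes holds the transport complexes, BBSome genes, the return motor dynein-2 and Kifap3, a subunit of the kinesin-2 motor itself. Of these, 18 rose and 0 fell at pachytene entry, with a median change of 1.56, beside 14.2% of all genes higher and 15.2% lower. Ift80 rose by 2.70, Ift57 by 2.35, Ift140 by 2.23 and Bbs7 by 2.22. From spermatogonia to round spermatids 18 rose and 0 fell, beside 30.2% of all genes higher and 35.3% lower. In Spo11-/- cells, where 10.0% of all genes were lower and 1.63% higher, 5 were lower, among them Ift172 (-2.09) and Ift43 (-1.84), and 1, Ttc30b, was higher (1.09). Of the 25 spindle and cytokinesis partners measured, 8 fell and 1 rose at pachytene entry, with a median of -0.78, beside the same shares of all genes as above. Aurkb, the mitotic Aurora kinase of the chromosomal passenger complex, fell by 2.06, and Aurkc, its germ cell relative, rose by 1.59 and by a further 1.81 to diplotene. Racgap1, the centralspindlin partner of Kif23, fell by 1.20.

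The list of cargo adaptors also holds Fhl5, which Kif17 moves, and the transcription factor Crem, which are not adaptors. Of its 16 genes tested, 5 rose and 4 fell from spermatogonia to round spermatids. Together this is no larger a share than the 65.4% of all genes called. Crem rose by 4.82, Trak1, a mitochondrial adaptor of kinesin-1, by 2.91 and Fhl5 by 2.64, while Ppfia1, an adaptor of kinesin-3, fell by 3.57. In Spo11-/- cells 3 of 15 genes of this list were lower, beside 10.0% of all genes: Fhl5 (-4.49), Crem (-2.59) and Spata33 (-1.59). Of the 19 cytoplasmic dynein genes, the minus-end motor, 4 rose and 4 fell from spermatogonia to round spermatids, a smaller share than the 65.4% of all genes. Dynlrb1 fell by 5.71 and Dynlrb2, its alternative light chain, rose by 5.63. Dynlrb2 was lower in Spo11-/- cells, by 4.10 (-4.10 ± 0.46, adjusted p = 0.000194). All the partner changes given here had limma adjusted p below 0.05.

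How far a gene's reading rests on its probe set was checked in 16 genes. In these the probe set used and another were both above log2 4 in at least 12 arrays. The lowest correlation of the probe set used with the gene's others, over the 8 fraction means, was at least 0.8 in 9 of them and under 0.5 in 5: Kif11 (0.36), Kif2a (0.18), Kif2c (-0.19), Kif1b (-0.27) and Kif3a (-0.36). Values of these 5 hold for the probe set used. So do those of Kif21a, which was outside this check because the probe set used reached log2 4 in 6 arrays. Another probe set of Kif21a, above log2 4 in 18 arrays, had means of 4.17 in spermatogonia and 4.06 in round spermatids. Its correlation with the probe set used was 0.23. Kifc1 and Kifc5b are near-identical copies, and the probe sets used for Kifc1, Kif16b, Kif17, Kif22 and Kif2c are of the kinds that may hybridise to related transcripts, so their readings could be shared.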

How the data were processed

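Affymetrix array values of 23 sorted germ cell samples were used. Per the labels, the authors deposited GCRMA intensities, 1 linear value per probe set; the GCRMA version and settings are not given in the sources used here. Array values carry no read depth, so the number of arrays limits the precision. Of 45037 probe sets, 34945 had 1 symbol, 932 several and 9160 none listed. Values were taken as log2(intensity + 1), with 1 probe set per gene by highest wild-type mean.

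The wild-type comparisons were fitted with limma 3.58.1 in R 4.3.3 as a mean per fraction over 20 arrays, and the Spo11-/- comparison as fraction plus genotype over 13 arrays; every adjusted p in the text is limma's with Benjamini-Hochberg adjustment. Genes needed log2 4 in at least 2 arrays of the fit, which left 13087 and 11980 genes. A change against a group wholly below log2 4 was bounded at log2 4. The scripts were tested on simulated data. The labels call the repeats biological without saying that they come from separate animals, so p-values measure the spread between these arrays.

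Same-numbered spermatogonia and pre-leptotene arrays deviated together (correlations 0.526, 0.652 and 0.228), as did spermatogonia and round spermatids (0.396, 0.121, 0.102 and 0.158), which was taken as pairing from the data. Pre-leptotene and leptotene/zygotene gave 0.591, 0.083 and 0.272, and leptotene/zygotene and mid-pachytene 0.560 and 0.292. Mid-pachytene and diplotene gave 0.635 for both numbers, and diplotene and round spermatids 0.592 and 0.066. Calls and p-values without a named block do not use this pairing. Named genes are, per comparison, up to 6 called higher and 6 lower in order of size, per role the genes of highest mean and widest range, and up to 4 called partners per list; other genes are named to account for all 40 or were chosen after their values were seen. The genes, lists and tests were chosen with earlier results of these data known. Alternatives covered normalization, filter, probe sets, variance model, fold minimum, arrays left out and replicate block.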

Additional observations from a re-analysis of the deposited data

Results flagged for a closer look

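In groups of 4 arrays, 80 sets of values of a kinesin gene were examined for an array far from the others, and 2 stood out; chance alone gives about 1 in 20. Kif5a read 4.59 in round spermatid array 1, above the other 3 at 3.80 to 3.93. Kifc5b read 5.99 in spermatogonia array 3, the highest of its 4. For Kif18b the single Spo11-/- arrays lay 0.91 from the wild-type mean in spermatogonia and -1.96 in pre-leptotene. The limma interaction of fraction and genotype gave adjusted p = 0.00752, but only if each lone Spo11-/- array varies like the wild-type arrays, since the Spo11-/- spread within a fraction was not measured. The pre-leptotene array also carried T cell markers, whose part was not tested.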

How the results depend on the processing

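Among values of single called kinesin genes under the alternatives, 788 kept their direction and call, 104 kept their direction but lost the call, and 0 reversed. The count of kinesin genes called moved by over 1.5 times in these cases. With no fold minimum, 1 gene (Kif18b) was called from spermatogonia to pre-leptotene. On the arrays of the compared fractions alone, 2 were called from mid-pachytene to diplotene. With the replicate block, 2 were called from spermatogonia to pre-leptotene and 1 (Kif9) from pre-leptotene to leptotene/zygotene; elsewhere the block gave 17, 8, 11 and 23 in place of 13, 6, 9 and 22. Among the added genes were Kif9 (2.59 to leptotene/zygotene, adjusted p = 0.0371, and 2.55 at pachytene entry, 0.0153), Kifc1 (-1.87 at pachytene entry, 0.00895), Kif3c (-1.13 to diplotene, 0.0222) and Kif21a (1.69 to round spermatids, 0.0336). Only 2 of 3 numbers matched best with their own in each of the early comparisons, and 4 of 4 in spermatogonia against round spermatids. In the Spo11-/- comparison 3 were called with the mean of all probe sets and 3 without the pre-leptotene arrays, in place of 5.

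Leaving out each array in turn gave 0 to 2 genes from spermatogonia to pre-leptotene, 0 to 1 to leptotene/zygotene, 6 to 14 at pachytene entry (6 without mid-pachytene array 2), 1 to 8 to diplotene (1 without mid-pachytene array 1), 4 to 10 to round spermatids (4 without diplotene array 1), 19 to 23 between spermatogonia and round spermatids, and 2 to 7 in Spo11-/- (2 without its leptotene/zygotene array). A lone array is assumed to vary like the other groups. The cause of these moves was not tested. Genes near log2 4, such as Kif1a and Kif26b, are limited by signal over background.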
